A study of Mus musculus with 6 samples.

Results

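The genes described here are 10 transcripts of antigen presentation and of Langerhans and dendritic cells, chosen by gene symbol from the 19309 genes of the deposited expression table: H2-Aa, H2-Ab1, H2-Eb1, Cd74, Ciita, Cd207, Itgax, Zbtb46, Epcam and Flt3. All 10 were in the table and passed the filter on low counts. They were measured by RNA sequencing of cheek tissue from 3 healthy C57BL/6 mice aged 6 to 8 weeks. For 12 days, 2 times a day, the shaved right cheek was wiped for 30 s with equal parts of acetone and ether and then for 30 s with distilled water (AEW, a dry skin model), while the left cheek of the same animal was wiped for 60 s with distilled water alone (vehicle). Each group therefore holds 3 libraries, numbered by mouse. The labels name no transgene or mutant allele, and the side of the face cannot be told apart from the treatment.

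Library totals ran from 18449145 to 19506462 estimated counts. The tissue was not skin alone: the summed level of 16 skeletal muscle markers was 15228 to 21504 CPM in AEW and 36197 to 53090 CPM in vehicle tissue, where CPM stands for counts scaled to library size with TMM factors. Keratinocyte markers summed to 21692 to 31604 CPM in AEW and 14360 to 21416 CPM in vehicle tissue. AEW mouse 1 and vehicle mouse 1 stood apart from the other libraries of their groups in leukocyte markers. The summed level of 12 markers shared by leukocytes was 651, 1179 and 962 CPM in AEW mice 1, 2 and 3 and 1036, 785 and 605 CPM in vehicle mice 1, 2 and 3. The sum of 12 macrophage markers was 889, 2241 and 1645 CPM in AEW mice 1, 2 and 3 and 2083, 1029 and 849 CPM in vehicle mice 1, 2 and 3.

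Major histocompatibility complex (MHC) class II molecules present peptides taken from outside the cell to CD4+ T cells. Their alpha and beta chains assemble on the invariant chain, which blocks the peptide groove and guides the complex to the endosome, and the transactivator CIITA turns on the genes of the chains and of the invariant chain together. In mouse skin the cells that carry class II at rest are mainly Langerhans cells of the epidermis, dendritic cells of the dermis and some dermal macrophages. Langerhans cells also carry langerin, a lectin of Birbeck granules, and EpCAM, and they depend on interleukin 34 from keratinocytes, whereas dendritic cells depend on the cytokine receptor FLT3.

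The class II genes are read through a shared promoter module, in which an X box bound by RFX factors lies upstream of a Y box bound by NF-Y, and these sequences are shown because the class II transcripts moved together from library to library. Promoter windows of 300 bases, from 250 before to 50 after the start of the gene, were taken from RefSeq on GRCm38.p6, which is not the build used for the counts. In them TGATTGG was searched as the core of the Y box, and GNAAC starting 20 to 40 bases upstream of it, so that the pair cannot overlap, as a core of the X box. Both strands were searched, and the motifs were chosen after the sequences had been read. Of 10 genes, namely Cd74 and the class II genes H2-Aa, H2-Ab1, H2-Eb1, H2-Eb2, H2-DMa, H2-DMb1, H2-DMb2, H2-Oa and H2-Ob, 8 had an entry, 7 held TGATTGG and 6 held the pair. H2-Ab1 and Cd74 had no entry, H2-DMa held no TGATTGG, and H2-DMb2 held TGATTGG without the pair. The windows therefore do not show the module for every transcript that moved together. H2-Eb2 held the pair but had only 2 to 20 estimated counts in a library, too few to say whether it moved with the others. Flt3, whose level followed that of the class II genes, had an entry and held neither motif. Of all 32851 windows 7.82% held TGATTGG and 0.569% held the pair. Since the motifs were chosen after the sequences had been read, these shares give no test of the class II windows. Any part of the promoters in the shared movement was not tested. Of the 6 genes Ciita, Cd207, Itgax, Zbtb46, Epcam and Flt3, 5 had an entry and 0 held either. The sequences of H2-Aa and H2-Eb1 run over 180 bases up to the start of the gene, at chr17:34287824-34288003 on the minus strand and chr17:34305687-34305866 on the plus strand. Those of the other 4 genes run from 10 bases before the pair to 10 after it. Capitals mark GNAAC and TGATTGG.
H2-Aa: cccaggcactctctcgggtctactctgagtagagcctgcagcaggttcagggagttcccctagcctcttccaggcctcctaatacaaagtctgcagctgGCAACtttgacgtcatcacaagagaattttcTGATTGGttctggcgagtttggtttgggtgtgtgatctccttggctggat
H2-Eb1: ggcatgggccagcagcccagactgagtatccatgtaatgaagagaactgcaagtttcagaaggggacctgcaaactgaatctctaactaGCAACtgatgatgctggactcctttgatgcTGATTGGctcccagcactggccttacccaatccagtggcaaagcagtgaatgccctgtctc
H2-Eb2: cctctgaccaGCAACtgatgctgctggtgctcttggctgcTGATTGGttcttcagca
H2-DMb1: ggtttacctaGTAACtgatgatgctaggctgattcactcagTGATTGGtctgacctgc
H2-Oa: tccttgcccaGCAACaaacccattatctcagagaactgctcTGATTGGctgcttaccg
H2-Ob: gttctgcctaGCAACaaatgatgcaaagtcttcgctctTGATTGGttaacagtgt
In H2-Aa the Y box core began 50 bases before the start of the gene and the X box core 31 bases further upstream, and in H2-Eb1 these distances were 61 and 30 bases. A match is a description of these letters and not a measured site.

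Class II transcripts were abundant in both groups, and the transcripts of the chains and of the invariant chain varied together across the libraries. H2-Aa (gene 14960), the alpha chain of I-A, the class II molecule that C57BL/6 mice display, stood at 329, 675 and 624 CPM in AEW mice 1, 2 and 3 and at 862, 648 and 521 CPM in vehicle mice 1, 2 and 3. H2-Ab1 (gene 14961), its beta chain, stood at 355, 563 and 612 CPM in AEW mice 1, 2 and 3 and at 846, 646 and 533 CPM in vehicle mice 1, 2 and 3. For both genes the lowest library was AEW mouse 1 and the highest vehicle mouse 1, with the other 4 libraries between them, and the groups overlapped. H2-Eb1 (gene 14969), the beta chain of I-E, stood at 193, 339 and 358 CPM in the AEW libraries in the same order and at 457, 350 and 309 CPM in the vehicle libraries. Cd74 (gene 16149), the invariant chain, stood at 652, 1248 and 1321 CPM in the AEW libraries and at 1749, 1246 and 1079 CPM in the vehicle libraries. These again overlapped, with the extremes in both cheeks of mouse 1.

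**Figure D1:**
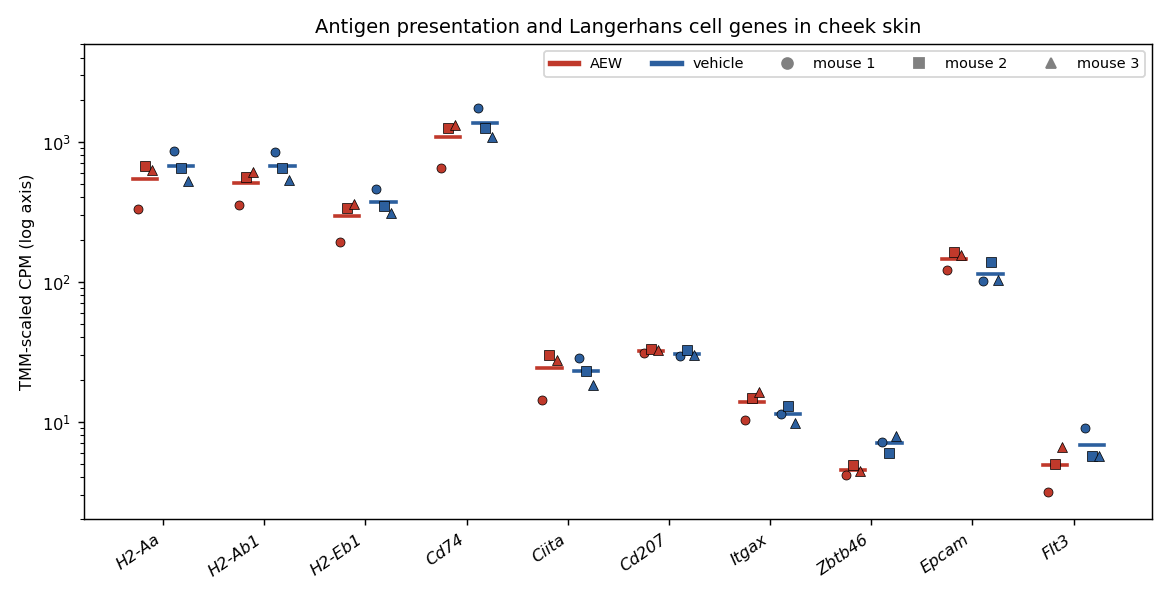
Level of each gene in every library, as TMM-scaled CPM on a log axis, with AEW in red and vehicle in blue, a symbol per mouse and a bar at the group mean. For H2-Aa, H2-Ab1, H2-Eb1 and Cd74 the AEW point of mouse 1 is the lowest and the vehicle point of mouse 1 the highest, whereas the 6 points of Cd207 lie between 29.6 and 33.1 CPM.

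None of these genes differed between the groups beyond the spread between mice. The log2 fold change of H2-Aa was -0.32 with a standard error (SE) of 0.30 and a 95% interval from -1.02 to 0.38, at an adjusted p of 0.505 in edgeR's quasi-likelihood test with Benjamini-Hochberg adjustment over 15109 genes. For H2-Ab1 the log2 fold change was -0.40 (interval -0.99 to 0.18, edgeR adjusted p = 0.309), for H2-Eb1 -0.33 (interval -0.93 to 0.27, edgeR adjusted p = 0.427) and for Cd74 -0.34 (interval -1.04 to 0.36, edgeR adjusted p = 0.479). Within mice the direction was not shared. The AEW to vehicle ratio of H2-Aa was 0.382 for mouse 1, with a 95% exact binomial interval from 0.371 to 0.393, while mouse 2 gave 1.04 (1.02 to 1.07) and mouse 3 gave 1.20 (1.17 to 1.23). For Cd74 the ratios of mice 1, 2 and 3 were 0.373, 1.00 and 1.22. Such intervals cover counting error only, which for these genes was far smaller than the spread between mice. In a fit of mice 2 and 3 alone, blocked by mouse, the log2 fold changes were 0.16 for H2-Aa, 0.081 for H2-Eb1 and 0.15 for Cd74, with edgeR adjusted p of 0.303, 0.622 and 0.371, so the sign of these values rested on mouse 1. In whole tissue, fewer cells of a type and less RNA per cell cannot be told apart.

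**Figure D2:**
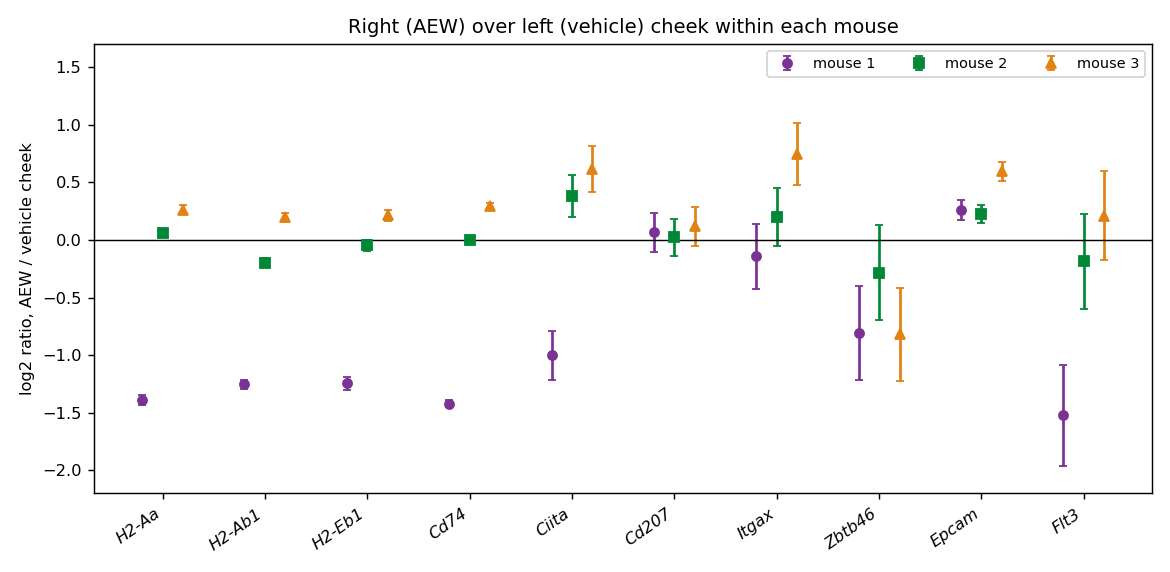
Log2 ratio of the AEW to the vehicle cheek within each mouse, with 95% exact binomial intervals that cover counting error only. Mouse 1 lies far below mice 2 and 3 for H2-Aa, H2-Ab1, H2-Eb1, Cd74, Ciita and Flt3, all 3 mice lie near 0 for Cd207, and all 3 lie above 0 for Epcam and below 0 for Zbtb46.

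The proportions among the class II transcripts spanned 1.13 to 1.29 fold, while their level spanned 2.37 to 2.68 fold between the lowest and the highest library. In TPM, which is scaled for gene length, H2-Aa stood at 0.570 ± 0.038 of Cd74 in AEW and 0.562 ± 0.022 in vehicle tissue (SD, n = 3 each). H2-Eb1 stood at 0.210 ± 0.011 of Cd74 in AEW and 0.207 ± 0.010 in vehicle tissue (SD, n = 3 each). Across the 6 libraries the ratio to Cd74 spanned 1.14 fold for H2-Aa, 1.21 fold for H2-Ab1 and 1.13 fold for H2-Eb1. H2-Aa over H2-Ab1 spanned 1.29 fold, at 0.983, 1.27 and 1.08 in AEW mice 1, 2 and 3 and 1.08, 1.06 and 1.04 in vehicle mice 1, 2 and 3. These genes lie side by side on chromosome 17 (H2-Aa, H2-Ab1 and H2-Eb1) or on another chromosome (Cd74).

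Ciita (gene 12265), the transactivator of these genes, stood at 14.2, 30.0 and 27.8 CPM in AEW mice 1, 2 and 3 and at 28.4, 23.1 and 18.2 CPM in vehicle mice 1, 2 and 3. AEW mouse 1 was again the lowest library, but the highest was AEW mouse 2. The log2 fold change was 0.048 ± 0.29 (SE) with an edgeR adjusted p of 0.928. It was higher in AEW tissue in 2 of 3 mice, with a ratio of 0.50 for mouse 1 (exact binomial 95% interval 0.431 to 0.579), while mouse 2 gave 1.30 (1.15 to 1.48) and mouse 3 gave 1.53 (1.33 to 1.76). In mice 2 and 3 alone its log2 fold change was 0.49 with the block (edgeR adjusted p = 0.0187; 12.7% of all genes were called higher in that fit and 10.5% lower) and 0.49 with no block (edgeR adjusted p = 0.0786). Relative to Cd74 in TPM, Ciita was 0.0036, 0.0044 and 0.0039 in AEW mice 1, 2 and 3 and 0.0030, 0.0033 and 0.0029 in vehicle mice 1, 2 and 3, so that by this ratio the groups did not overlap. This ratio was chosen after the values were seen and was not tested, and how many of all genes separate on it was not counted.

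The Langerhans cell marker Cd207 (gene 246278), which encodes langerin and in mouse skin is also carried by a subset of dermal dendritic cells, was the steadiest of the 10 genes. Its level was 30.9, 33.1 and 32.4 CPM in AEW mice 1, 2 and 3 and 29.6, 32.6 and 29.9 CPM in vehicle mice 1, 2 and 3. The groups overlapped, and the highest library was 1.12 fold the lowest, against 2.62 fold for H2-Aa. The log2 fold change was 0.068 ± 0.083 (SE), with a 95% interval from -0.13 to 0.26 and an edgeR adjusted p of 0.618. By mouse the ratio was 1.05, 1.02 and 1.09 in mice 1, 2 and 3, each with a 95% exact binomial interval that included 1. In TPM, Cd207 was 0.039 of Cd74 in AEW mouse 1 and 0.014 in vehicle mouse 1, against 0.020 to 0.023 in the other 4 libraries. As a share of the keratinocyte marker sum it was 0.105% to 0.143% in AEW and 0.152% to 0.206% in vehicle tissue, without overlap. That sum was itself higher in AEW (21692 to 31604 CPM) than in vehicle tissue (14360 to 21416 CPM), also without overlap, while Cd207 was flat. This share was chosen after the values were seen and not tested, and how many of all genes separate on it was not counted.

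Epcam (gene 17075), the epithelial cell adhesion molecule, is carried by Langerhans cells and also by epithelial cells, including those of hair follicles. It stood at 121, 163 and 155 CPM in AEW mice 1, 2 and 3 and at 101, 139 and 103 CPM in vehicle mice 1, 2 and 3. AEW was the higher cheek in 3 of 3 mice, with ratios of 1.20, 1.17 and 1.51, yet the groups overlapped because vehicle mouse 2 lay above AEW mouse 1. The log2 fold change of 0.35 ± 0.17 (SE, interval -0.042 to 0.75) was not past the threshold (edgeR adjusted p = 0.203). Of 10 keratinocyte markers 2 rose in edgeR, Krt14 and Krt1, and 0 fell, where 4.85% of all tested genes rose and 6.8% fell. The median log2 fold change of these markers was 0.29. Krt14, a keratin of the basal layer, averaged 5480 ± 895 CPM in AEW and 2799 ± 650 CPM in vehicle tissue (SD, n = 3 each, edgeR adjusted p = 0.0319). Krt5, its partner, had a log2 fold change of 0.43 (edgeR adjusted p = 0.169), and Krt15, another basal keratin, lay lower in every AEW library than in any vehicle library, at a log2 fold change of -0.76 (edgeR adjusted p = 0.0506). As a share of the keratinocyte marker sum, Epcam was 0.515% to 0.558% in AEW and 0.569% to 0.703% in vehicle tissue. That sum was itself higher in every AEW library than in any vehicle library. The part of keratinocytes in the Epcam level was not tested.

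The genes of conventional dendritic cells did not move as a group. Zbtb46 (gene 72147), a transcription factor that marks conventional dendritic cells and is also made by endothelial cells, stood at 4.13, 4.88 and 4.45 CPM in AEW mice 1, 2 and 3 and at 7.21, 5.94 and 7.84 CPM in vehicle mice 1, 2 and 3. It was the only gene of the 10 whose groups did not overlap, and it was lower in AEW tissue in 3 of 3 mice, with ratios of 0.572, 0.822 and 0.567. Such separation was common in these libraries, since 36.9% of all tested genes had groups that did not overlap and 19.5% lay lower in AEW. The log2 fold change of -0.64 ± 0.18 (SE, interval -1.06 to -0.22) did not reach the threshold (edgeR adjusted p = 0.0613, and 0.140 with the mouse as a block). DESeq2 placed it past the threshold (adjusted p = 0.0383).

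Flt3 (gene 14255), the receptor that dendritic cell precursors need, had among the lowest levels, at 3.13, 4.99 and 6.62 CPM in AEW mice 1, 2 and 3 and 8.96, 5.67 and 5.73 CPM in vehicle mice 1, 2 and 3. It followed the class II genes, with AEW mouse 1 lowest and vehicle mouse 1 highest, and its log2 fold change was -0.47 ± 0.32 (SE, edgeR adjusted p = 0.365). Itgax (gene 16411), the CD11c integrin chain of dendritic cells and some macrophages, stood at 10.2, 14.8 and 16.4 CPM in AEW mice 1, 2 and 3 and at 11.3, 12.9 and 9.78 CPM in vehicle mice 1, 2 and 3. Its ratios in mice 1, 2 and 3 were 0.906, 1.15 and 1.67, and its log2 fold change was 0.28 ± 0.20 (SE, edgeR adjusted p = 0.388). The groups overlapped for both genes.

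Of the 10 genes, 0 passed an adjusted p of 0.05 in edgeR, where 11.6% of all 15109 tested genes did, 4.85% as higher and 6.8% as lower. At an unadjusted p under 0.05 the count was 1 of 10, Zbtb46, against 30.8% of all tested genes. With the mouse as a block 0 of 10 passed, where 5.88% of all genes did, 1.99% as higher and 3.89% as lower. DESeq2 called 1, Zbtb46, as lower, where it called 9.01% of all genes higher and 10% lower, and limma on the deposited TPM called 0, where it called 8.82% of all genes. The median log2 fold change over the 10 genes was -0.32, beside 0.014 over all tested genes. By mouse it was -1.11, 0.012 and 0.24 in mice 1, 2 and 3, where the medians of all tested genes were -0.0068, -0.0063 and 0.0049. In mouse 1 8 of 10 genes were lower in the AEW cheek, and in mouse 3 9 of 10 were higher.

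**Figure D3:**
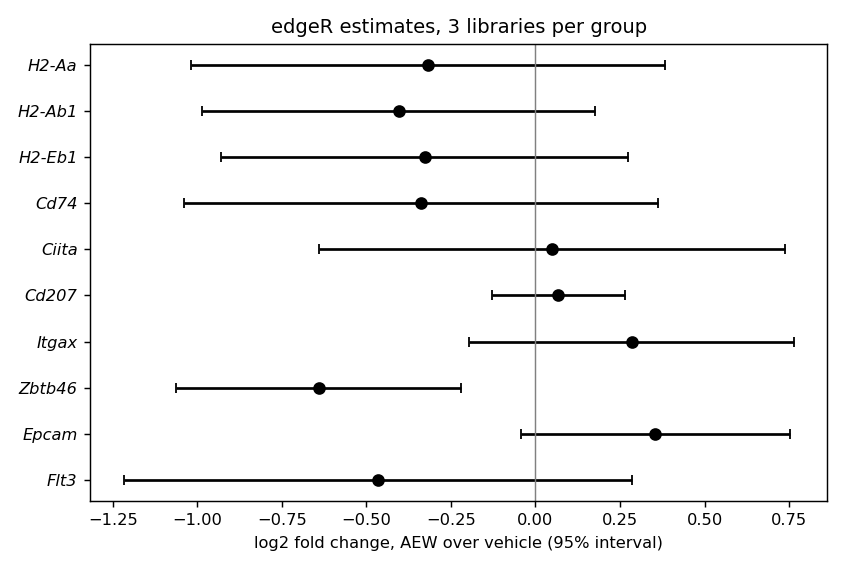
Log2 fold change of AEW over vehicle for each gene, as estimated by edgeR from 3 libraries per group, with 95% intervals. The interval of Cd207 is the narrowest, from -0.13 to 0.26, and that of Zbtb46, from -1.06 to -0.22, is the only one that leaves out 0 before adjustment for multiple tests.

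On the deposited TPM scale, which allows levels to be compared between genes, Cd74 led with a mean of 1633 ± 450 over the 6 libraries (SD), followed by H2-Aa at 922 ± 248, H2-Ab1 at 846 ± 212 and H2-Eb1 at 337 ± 80.2. The ranges of H2-Aa and H2-Ab1 over the libraries overlapped, and within a library H2-Aa over H2-Ab1 ran from 0.983 to 1.27. Epcam followed at 107 ± 22.4 TPM and Cd207 at 34.9 ± 2.33 TPM. The others lay far lower, with Ciita at 5.70 ± 1.66, Itgax at 5.2 ± 1.13, Flt3 at 2.89 ± 0.97 and Zbtb46 at 2.27 ± 0.55 TPM. The ranges of Ciita and Itgax over the libraries overlapped, as did those of Flt3 and Zbtb46.

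The ratio of the class II level to the leukocyte markers was lower in AEW tissue, while the class II level itself overlapped between the groups. In mice 2 and 3 the leukocyte sum was higher in AEW (1179 and 962 CPM) than in vehicle tissue (785 and 605 CPM). In mouse 1 it was lower (651 CPM in AEW and 1036 CPM in vehicle tissue). The sum of H2-Aa, H2-Ab1, H2-Eb1 and Cd74 was 1528, 2824 and 2915 CPM in AEW mice 1, 2 and 3 and 3913, 2889 and 2442 CPM in vehicle mice 1, 2 and 3. Divided by the sum of the 12 leukocyte markers it was 2.35, 2.39 and 3.03 in AEW mice 1, 2 and 3 and 3.78, 3.68 and 4.04 in vehicle mice 1, 2 and 3. All 3 AEW values lay below all 3 vehicle values, a log2 difference of -0.57. The ratio was chosen after the values were seen, so no test is given. Its log2 difference was -0.52 without mouse 1. Divided by each of the 12 leukocyte markers in turn, the class II sum was lower in all AEW libraries for 9 of them and overlapped for 3, namely Cd52, Cd53 and Tyrobp. These 12 ratios share the class II sum, and their divisors make up the leukocyte sum, so they restate that ratio and are not separate support for it.

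**Figure D4:**
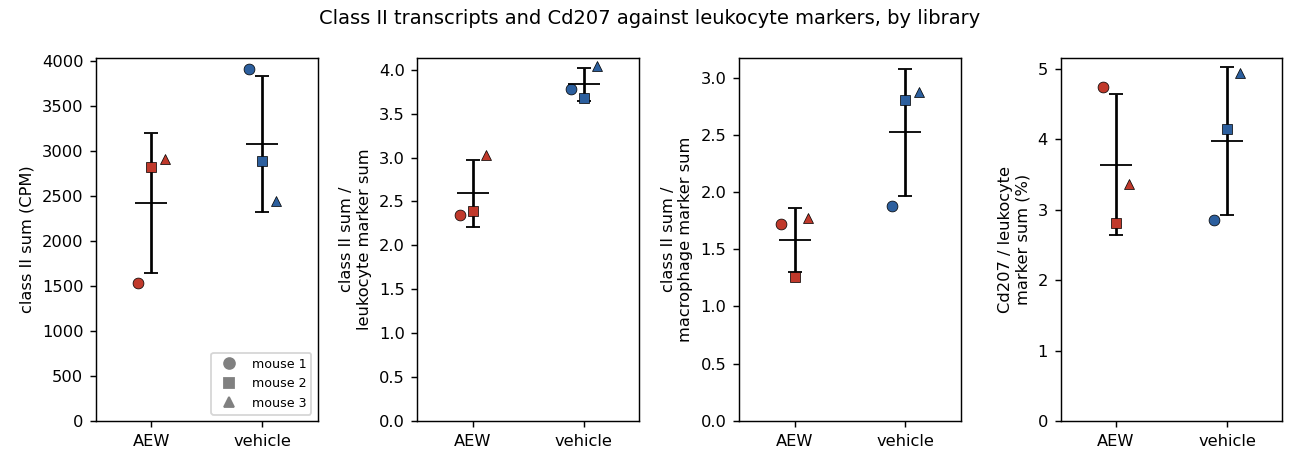
From left to right, the summed CPM of H2-Aa, H2-Ab1, H2-Eb1 and Cd74, this sum divided by the summed leukocyte markers and by the summed macrophage markers, and Cd207 as a percentage of the leukocyte markers, with a point per library and the mean and SD of 3. The sum overlaps between the groups, its ratio to leukocyte markers lies between 2.35 and 3.03 in AEW and between 3.68 and 4.04 in vehicle tissue, and Cd207 overlaps.

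Divided by the macrophage marker sum, the class II sum was 1.72, 1.26 and 1.77 in AEW mice 1, 2 and 3 and 1.88, 2.81 and 2.88 in vehicle mice 1, 2 and 3, again without overlap. Divided by the sum of 25 dendritic cell genes it was 1.97, 2.66 and 3.22 in AEW mice 1, 2 and 3 and 4.05, 3.86 and 3.6 in vehicle mice 1, 2 and 3, also without overlap. That divisor was 775 to 1060 CPM in AEW and 679 to 965 CPM in vehicle tissue. Cd24a, which epithelial cells also make, held 210 to 273 CPM of it in AEW and 171 to 183 CPM in vehicle tissue. The macrophage and dendritic cell ratios share the class II sum with the leukocyte ratio and are not separate support for it. How many of all genes separate on these divisors was not counted. Of the macrophage markers Cd68, a lysosomal protein, averaged 102 ± 49.2 CPM in AEW and 61.7 ± 30.2 CPM in vehicle tissue (SD, n = 3 each, edgeR adjusted p = 0.331). Relative to the leukocyte marker sum, 6 of the 10 genes lay lower in every AEW library than in any vehicle library: H2-Aa, H2-Ab1, H2-Eb1, Cd74, Zbtb46 and Flt3. On the same ratio 9.9% of all tested genes lay lower without overlap, 3.26% lay higher and 13.2% did so in either direction. This divisor was chosen after the values were seen. H2-Aa, H2-Ab1, H2-Eb1 and Cd74 make up the class II sum and varied together. Their separation therefore restates that of the sum, and the count of 6 is not separate support for it. Cd207 was 4.75%, 2.80% and 3.37% of the leukocyte marker sum in AEW mice 1, 2 and 3 and 2.85%, 4.15% and 4.94% in vehicle mice 1, 2 and 3, and overlapped. Ptprc, the CD45 antigen and a member of that list, averaged 46.0 ± 15.4 CPM in AEW and 48.6 ± 13.7 CPM in vehicle tissue (SD, n = 3 each). B cells, which also carry class II, left little signal: the sum of 8 of their markers was 4.37 to 5.51 CPM in AEW and 5.83 to 7.98 CPM in vehicle tissue, and 0 of the 8 were at 0 in every library. Neutrophil markers summed to 16.9 to 81.9 CPM in AEW and 8.39 to 14.0 CPM in vehicle tissue, and T cell markers to 41.4 to 51.9 CPM in AEW and 55.4 to 61.0 CPM in vehicle tissue. Of 10 neutrophil markers only S100a8, S100a9, Csf3r and Cxcr2 passed the filter on low counts. The others averaged 0.605 CPM or less in each group, so the neutrophil sum rested on these 4. The T cell markers were split. Of 10, 5 had a log2 fold change above 0, and edgeR called 2 lower and 0 higher. Of all tested genes edgeR called 6.8% lower and 4.85% higher. Cd3g averaged 12.5 CPM in AEW and 20.9 CPM in vehicle tissue, while Cd4 averaged 8.02 CPM in AEW and 4.52 CPM in vehicle tissue. The part of the mix of leukocytes in these ratios was not tested.

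In the wider class II pathway, a list of 20 further genes of peptide loading, class II transcription and costimulation, 0 were called in edgeR and 1 had an unadjusted p under 0.05. Of all tested genes 11.6% were called in edgeR and 30.8% had an unadjusted p under 0.05. DESeq2 and limma also called 0, where DESeq2 called 9.01% of all genes higher and 10% lower and limma called 8.82%. The median log2 fold change was 0.012, beside 0.014 over all tested genes. In mouse 1 16 of 20 were lower in the AEW cheek, in mouse 2 14 were higher and in mouse 3 17 were higher. Rfxank, a subunit of the RFX complex, had a log2 fold change of 0.25 ± 0.086 (SE, edgeR adjusted p = 0.104). Lgmn, an endosomal protease that cleaves the invariant chain, had one of 0.75 ± 0.33 and Ctsl, a cathepsin, one of 0.68 ± 0.35, with edgeR adjusted p of 0.176 and 0.234. Marchf8, a ligase that marks class II for removal from the surface, had one of -0.27 ± 0.12 (SE, edgeR adjusted p = 0.180). In mice 2 and 3 alone, blocked by mouse, 4 of the 20 were called higher and 0 lower, among them Lgmn at a log2 fold change of 1.29 and Ctsl at 1.04, where 12.7% of all genes were called higher and 10.5% lower.

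The MHC class I pathway, which presents peptides made inside the cell, was covered by 19 genes. In edgeR 0 of them passed and 7 had an unadjusted p under 0.05, against 11.6% and 30.8% of all genes. Their median log2 fold change was -0.26. Calr and Pdia3, chaperones of class I assembly that also fold many other proteins, had log2 fold changes of 0.37 ± 0.096 and 0.34 ± 0.10 (SE, edgeR adjusted p = 0.0508 and 0.0741). H2-Q4, a class I gene, and Tapbpl, a peptide editor, had log2 fold changes of -0.49 ± 0.17 and -0.30 ± 0.098 (SE, edgeR adjusted p = 0.10 and 0.0920). DESeq2 called Calr and Pdia3 higher and H2-Q4 lower, where it called 9.01% of all genes higher and 10% lower. Calr was also called by limma, which called 8.82% of all genes. Genes of the H2 class I family are near-identical in places, so the estimated counts of H2-Q4 and of its relatives are uncertain, as are those of H2-DMb1 and H2-DMb2.

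Interferon gamma raises CIITA and class II in many cells, and 18 genes that respond to it or carry its signal were tested. In edgeR 0 passed and 8 had an unadjusted p under 0.05, against 11.6% and 30.8% of all genes. Their median log2 fold change was -0.53. DESeq2 called 7 lower, where it called 10% of all genes lower, and limma called 0, where it called 8.82% of all genes. Gbp2, a guanylate-binding protein, stood at 30.9, 50.0 and 45.5 CPM in AEW mice 1, 2 and 3 and at 120, 64.7 and 63.9 CPM in vehicle mice 1, 2 and 3. Its groups did not overlap, and its log2 fold change was -0.98 ± 0.29 (SE, edgeR adjusted p = 0.0720, and 0.00658 in DESeq2). Cxcl9, a chemokine induced by interferon gamma, had a log2 fold change of -1.18 ± 0.36, the receptor gene Ifngr1 one of -0.46 ± 0.15 and the GTPase Irgm2 one of -0.83 ± 0.28, with edgeR adjusted p from 0.0746 to 0.10. In mouse 1 17 of 18 were lower in the AEW cheek and in mouse 3 15 were, whereas in mouse 2 11 were higher.

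Of 20 genes that maintain or recruit Langerhans cells, 1 rose and 1 fell in edgeR, where 4.85% of all genes rose and 6.8% fell. Il34, the keratinocyte cytokine on which these cells depend, stood at 22.6, 25.3 and 29.5 CPM in AEW mice 1, 2 and 3 and at 35.8, 40.6 and 37.8 CPM in vehicle mice 1, 2 and 3, without overlap. Its log2 fold change was -0.56 ± 0.12 (SE, edgeR adjusted p = 0.0309), lower in AEW tissue in 3 of 3 mice. The call was lost with the mouse as a block (edgeR adjusted p = 0.0532), in limma on TPM (adjusted p = 0.0596 and 0.0583 with pseudocounts of 1 and 0.1) and without AEW mouse 2 or any vehicle library (edgeR adjusted p = 0.0741 to 0.127). Ccl20, a chemokine that draws cells bearing CCR6, including Langerhans cell precursors, rose to 3.13, 9.29 and 14.9 CPM in AEW mice 1, 2 and 3, against 0.819, 1.51 and 1.39 CPM in vehicle mice 1, 2 and 3. Its log2 fold change was 2.87 ± 0.58 (SE, edgeR adjusted p = 0.0286, and 0.0278 with the mouse as a block), and the call was lost in all fits that left out a library other than AEW mouse 1 (edgeR adjusted p = 0.0557 to 0.122). Runx3, a transcription factor Langerhans cells need, and Tnf, a cytokine that sets them migrating, had log2 fold changes of 0.48 and 0.64 (edgeR adjusted p = 0.116 and 0.140). The median of the list was 0.16. In mice 2 and 3 alone, blocked by mouse, 7 of the 20 were called higher and 2 lower, where 12.7% and 10.5% of all genes were.

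Among 25 further dendritic cell genes 2 rose and 0 fell in edgeR, beside the same 4.85% and 6.8% of all genes, and the median log2 fold change was 0.15. Fscn1, an actin-bundling protein of mature dendritic cells that other motile cells also make, averaged 71.3 ± 15.5 CPM in AEW and 37.0 ± 0.76 CPM in vehicle tissue (SD, n = 3 each). The log2 fold change of Fscn1 was 0.95 ± 0.15 (SE, edgeR adjusted p = 0.0167, and 0.0408 with the mouse as a block), and the call was lost without vehicle mouse 1 or vehicle mouse 3 (edgeR adjusted p = 0.0709 and 0.0853). Cd24a, a surface protein of some dendritic cells and of epithelial cells, averaged 251 ± 35.7 CPM in AEW and 176 ± 6.27 CPM in vehicle tissue (SD, n = 3 each, edgeR adjusted p = 0.0436). That call was lost with the mouse as a block (edgeR adjusted p = 0.0952) and in all fits that left out a library other than AEW mouse 3 (edgeR adjusted p = 0.0672 to 0.149), and in mice 2 and 3 alone (edgeR adjusted p = 0.0625 with the block and 0.115 without it). In mice 2 and 3 alone, blocked by mouse, 7 of the 25 were called higher and 0 lower, beside the same 12.7% and 10.5% of all genes. Socs2, a signalling inhibitor of migrating dendritic cells, and Flt3l, the ligand of FLT3, had log2 fold changes of -0.52 and -0.55 (edgeR adjusted p = 0.0738 and 0.112).

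Likeness of profile was measured as the root mean square distance between log2 CPM values over the 6 libraries, each gene centred on its own mean, among the 13755 genes whose log2 CPM averaged 1 or more. The genes nearest to H2-Ab1 were H2-DMa, a chain of the class II peptide loader, at 0.052, H2-Eb1 at 0.062 and Lyve1, a hyaluronan receptor of lymphatic vessels and some macrophages, at 0.065. H2-DMa stood at 39.97, 58.3 and 63.2 CPM in AEW mice 1, 2 and 3 and at 94.5, 69.8 and 55.6 CPM in vehicle mice 1, 2 and 3. Among the 10 genes, H2-Ab1 lay at 0.114 from H2-Aa, 0.091 from Cd74, 0.117 from Flt3, 0.239 from Ciita and 0.386 from Cd207. Cd207 lay nearest to Med20 at 0.020, Tmem238 at 0.021 and Ift20 at 0.023, genes with equally flat profiles, and a flat profile brings many genes close.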

How the data were processed

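RNA was extracted from cheek tissue, selected for poly(A), and read as single ends of 50 bases on a DNBSeq platform, per the labels' protocols. The submitters' processing notes name HISAT and GRCm39, while the counting tool, annotation and handling of strand were not given in the sources used here. Each library has columns of estimated counts, TPM and FPKM in the deposited table, named so per the file headers and made by the authors, beside the authors' group means. FPKM and the means were not used. Here, estimated counts, fractional for 53.9% to 57.2% of genes in a library, were rounded. The filterByExpr function, set to a count of 10, retained 15109 genes, and libraries were scaled by TMM factors from 0.973 to 1.05.

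Groups were compared by edgeR 4.0.16 (quasi-likelihood, R 4.3.3) with group as the only term and a threshold of 0.05 on the p-value adjusted over all tested genes. DESeq2 1.42.0 and limma 3.58.1 on log2(TPM + 1) or log2(TPM + 0.1) were alternatives, as were DESeq2 size factors, no filter, a count of 30, scaling without skeletal muscle genes, a block for the mouse, and leaving out a library or mouse 1. Exact binomial intervals at 95% came from SciPy 1.17.1. The tests were tried on simulated counts. Replicates are separate mice, and any pair within a group differed by far more than sampling noise (chi-square over its degrees of freedom 19.8 or more).

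The labels give both cheeks of a mouse the same number, so the libraries are paired by animal. Across genes, the deviations of the cheeks of mice 1, 2 and 3 from their group means had correlations of -0.296, -0.143 and -0.177. The fit blocked by mouse called 888 genes, against 1760 with no block.

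The 10 genes and all lists were chosen with earlier results of these data known. Named genes were the 10, then from each list of the class I and II pathways, Langerhans cell maintenance, dendritic cells and the interferon gamma response the 4 with the smallest p and any past the threshold, Ptprc, Cd68, Krt5 and Krt14, and the 3 genes nearest in profile to Cd207 and to H2-Ab1. Krt1, Krt15, S100a8, S100a9, Csf3r, Cxcr2, Cd3g and Cd4 were named after their values were seen. Cxcl11 was not analysed here.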

Additional observations from a re-analysis of the deposited data

How the results depend on the processing

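In 16 alternatives to the edgeR fit, 0 to 1 of the 10 genes passed. DESeq2 called 1 of them lower, Zbtb46, and the fit of mice 2 and 3 alone, blocked by mouse, called 1 higher, Ciita. Added to the fit of all 6 libraries, the block changed no call among the 10, while in mice 2 and 3 alone Ciita passed with the block and not without it. Over all genes, the 733 higher and 1027 lower became 300 and 588 with the mouse as a block. DESeq2 called 1362 higher, and limma called 666 lower with either pseudocount. In mice 2 and 3 alone with the block, 1922 were higher and 1588 lower, and fits that left out 1 library gave 23 to 1197 higher and 117 to 1041 lower.

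Without mouse 1, signs turned for H2-Aa (0.16 with the block and 0.15 without it), H2-Eb1 (0.081 and 0.079), Cd74 (0.15 and 0.14), Flt3 (0.013 and 0.026) and Ptprc (0.39 with either). The fit without mouse 1 and without the block was added after the data were seen. In fits that left out 1 library, Ciita ranged from -0.15 to 0.31 and Ptprc from -0.33 to 0.15. Cd207 (0.041 to 0.13), Itgax (0.14 to 0.47), Epcam (0.27 to 0.52), Zbtb46 (-0.75 to -0.37) and H2-Ab1 (-0.56 to -0.00071) kept their sign in all 16. Scaling without skeletal muscle genes changed no sign and no call among the 10. The log2 difference of the class II to leukocyte ratio lay between -0.69 and -0.51 in the 10 alternatives tried for it, all added after the data were seen. The causes were not tested.

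With 3 mice a gene such as H2-Aa, whose interval spans -1.02 to 0.38, could differ by up to that much undetected. Cell types cannot be separated in whole tissue.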

Other observations

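H2-Ea, the alpha chain of I-E, is a check on the strain, since C57BL/6 mice are known to lack its transcript because of a deletion at its promoter, and they therefore display no I-E although they make H2-Eb1. This gene was chosen after its values were seen. It had 1 estimated count in AEW mouse 1 and 0 in the other 5 libraries, where a count of 0 allows up to 3 counts in a library.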
